A study of Mus musculus with 15 samples.

Results

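The T-cell receptor beta chain (TCRβ) repertoire of CD8 T cells that carry a receptor for one islet peptide was compared with that of the other antigen-experienced CD8 T cells of the same wild-type (WT) NOD mice. NOD is an inbred strain that becomes diabetic spontaneously through autoimmunity, and the WT animals were NOD mice of 125 days with no treatment named in the labels. From each mouse the spleen was pooled with lymph nodes that do not drain the pancreas, and the suspension was labelled with 8 nM of an H-2Kd tetramer holding the IGRP206–214 peptide of an islet protein. Magnetic separation gave a tetramer-binding fraction (TET, 3 libraries, mice 1 to 3) and a flow-through fraction of CD8+CD44+ cells (CD8, 4 libraries, mice 1 to 4). Libraries with the same number were taken as the same mouse, and for WT mouse 4 the series holds a CD8 library only. These 7 libraries, of 15 in the series, were all that entered the tests, and the libraries of Ifngr1-mutant NOD mice served to look for shared sequences. They held 325 TET clonotypes and 22943 CD8 clonotypes out of 59364 in the series, where a clonotype is defined by its V family, its J segment and the nucleotide sequence of its complementarity-determining region 3 (CDR3).

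A TCRβ chain is assembled from one V, one D and one J gene segment, with nucleotides trimmed and added at the joins, and the CDR3 that spans these joins is the part of the chain that usually lies over the peptide. Cells that descend from one rearrangement share its nucleotide sequence, so a high count of a clonotype can come from a large clone or from cells rich in receptor RNA. IGRP, the catalytic subunit of an islet-specific glucose-6-phosphatase, is a major target of CD8 T cells in NOD mice, and the diabetogenic clone NY8.3, which recognises this peptide, carries a TRBV13 and TRBJ2-4 beta chain. The TRBV13 family is also used by invariant NKT cells (with TRBV1 and TRBV29) and by MAIT cells (with TRBV19), which are told apart from conventional T cells by their alpha chain. No alpha chain and no marker gene was measured, so the labelled cell types could not be checked beyond the beta chain.

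The sequences that carried the most counts are shown first, because a few of them held a large part of the counts of TET 1 and TET 2. In the following lines each CDR3 is read 5′ to 3′ from the codon of the conserved cysteine to that of the conserved phenylalanine, and capitals mark the nucleotides that the deposited table places between the V and J alignments, that is, D segment and added nucleotides. The amino acid CDR3, which serves as the name of the shorter ones, the V family and the J segment stand before each sequence.
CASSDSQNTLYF (TET 1, largest; TRBV13, TRBJ2-4): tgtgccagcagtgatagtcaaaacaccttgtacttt
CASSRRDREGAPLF (TET 2, largest; TRBV13, TRBJ1-5): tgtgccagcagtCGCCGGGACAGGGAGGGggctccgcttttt
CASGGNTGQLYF (TET 2, rank 2; TRBV13, TRBJ2-2): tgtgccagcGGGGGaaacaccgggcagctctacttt
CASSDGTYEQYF (TET 2, rank 4; TRBV13, TRBJ2-7): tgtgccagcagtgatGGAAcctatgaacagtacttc
Largest clonotype of TET 3 (CDR3 of 15 residues; TRBV13, TRBJ2-2): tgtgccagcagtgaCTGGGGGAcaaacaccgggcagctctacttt
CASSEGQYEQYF (TET 3, rank 2; TRBV13, TRBJ2-7): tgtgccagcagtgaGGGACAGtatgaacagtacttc
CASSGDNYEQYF (CD8 1, largest; TRBV13, TRBJ2-7): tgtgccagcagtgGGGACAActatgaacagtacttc
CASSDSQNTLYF took 1094 of the 4968 counts of TET 1 (22.0%, 95% exact Clopper-Pearson interval 20.9 to 23.2) with no nucleotide between the V and J alignments. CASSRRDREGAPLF, with 17 such nucleotides, took 2261 counts of TET 2 (15.1%, interval 14.5 to 15.7) and 148 counts of TET 1. It had no count in TET 3, in any of the 4 WT CD8 libraries or in any mutant library. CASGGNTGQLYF took 11.8% of the counts of TET 2 and was in no other WT library. The largest clonotype of TET 3 took 4.89% (interval 4.08 to 5.80) and also had 189 counts in TET 2. The 5 largest clonotypes of each TET library fill 15 places, with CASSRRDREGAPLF in both TET 1 and TET 2. TRBV13 held 14 of these places, the exception being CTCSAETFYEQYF (TRBV1, TRBJ2-7) in TET 1 with 123 counts. The largest clonotypes of the CD8 libraries were TRBV13 as well: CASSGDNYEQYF held 1.00% of CD8 1, a TRBJ2-1 clonotype 0.445% of CD8 2, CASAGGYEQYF 0.359% of CD8 3 and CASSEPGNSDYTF 0.445% of CD8 4. None of these 4 nucleotide sequences was found in a TET library.

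The amino acid sequence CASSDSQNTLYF was encoded by 4 nucleotide sequences in the TET libraries, which differ by synonymous codons and are shown for that reason. Capitals mark the nucleotides that differ from the one with the most counts.
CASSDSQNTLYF, sequence a: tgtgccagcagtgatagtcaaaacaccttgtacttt
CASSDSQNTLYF, sequence b: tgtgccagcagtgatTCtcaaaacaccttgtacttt
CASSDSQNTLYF, sequence c: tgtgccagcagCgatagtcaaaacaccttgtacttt
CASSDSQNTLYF, sequence d: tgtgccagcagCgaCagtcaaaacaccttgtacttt
Sequence a had 1094 counts in TET 1 and 804 in TET 2, b had 1341 in TET 2, c had 146 in TET 2 and d had 33 in TET 1. CD8 1 held a with 23 counts and b with 6, and a was in 7 of the 8 mutant libraries. Together this receptor (V family, J segment and amino acid CDR3) took 22.7% of the counts of TET 1, 15.3% of TET 2, 0.169% of CD8 1 and none of the other 4 libraries. Of the 301 receptors of the TET libraries, 8 had more than 1 nucleotide sequence, 6 of them TRBV13. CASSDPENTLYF (TRBV13, TRBJ2-4) had 212 and 44 counts for its pair of sequences in TET 2, and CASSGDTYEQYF (TRBV13, TRBJ2-7) had 674 and 154. In 3 of the 8, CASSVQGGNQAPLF (TRBV13), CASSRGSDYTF (TRBV26) and a TRBV5 receptor, both sequences had 1 count each.

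TET libraries held 4968, 14958 and 2536 counts and CD8 libraries 17116 to 27836, and the deposited tables do not say whether a count is a read or a molecule. A clonotype without a count could make up as much as 0.118% of TET 3 and 0.0108% of CD8 2 (3 counts, counting error only). TET 2 stood apart in how much it shared. Of its 126 clonotypes, 18 were in the TET library of mutant mouse 4, where they made up 88.9% of the counts against 25.4% in TET 2. In the CD8 library of that mutant mouse 20 were found, against 6 in the own CD8 library of TET 2. TET 1 and TET 3 also shared more clonotypes with that mutant CD8 library (6 and 7) than with their own (3 and 2). That mutant CD8 library held 9827 clonotypes, the most of the series, against 2040, 5316 and 6991 in CD8 1 to 3. A larger library can share more, so these numbers are not on a like basis. The clonotypes of TET 1 and TET 3 made up 23.9% and 22.7% of the counts of the TET library of mutant mouse 4. Other libraries of the series held 7, 18 and 5 clonotypes of TET 1 to 3 at 10 times their count or more. These were 6.86%, 14.3% and 5.15% of the clonotypes, against 0.361% to 1.62% (31 to 36 clonotypes) in the CD8 libraries. The values without TET 2 are given where they lose a call or differ much, and the part of sequences shared with other libraries was tested only by leaving out clonotypes held at 10 times the count elsewhere.

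The TET fraction held far fewer clonotypes than the CD8 fraction, and a given number of its largest ones held more of the counts. Rarefied to the 2536 counts of the smallest library, TET 1, 2 and 3 held 95.5, 81.9 and 97 clonotypes, and CD8 1 to 4 held 1200, 1820, 1967 and 2114. Every CD8 library was above every TET library. The means were 91.5 ± 8.3 (SD, n = 3) and 1775 ± 402 (SD, n = 4), and the ratio of geometric means was 19.0 (log2 difference -4.25, two-sided exact permutation test over 35 splits, p = 0.0286, the smallest possible, adjusted 0.0429 over 15 exact tests). At full depth the libraries held 108 ± 15.5 and 5736 ± 2804 clonotypes, a 46.9-fold difference with the same exact p.

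The exponential of the Shannon entropy at 2536 counts, the effective number of clonotypes, counts common clonotypes more than rare ones. It was 43.8, 23.1 and 61.5 in TET 1 to 3 and 947, 1611, 1779 and 1970 in CD8 1 to 4, and the groups did not overlap. The ratio was 38.4 (log2 difference -5.26, exact p = 0.0286, adjusted 0.0429), and without TET 2 the log2 difference was -4.87. The 15, 5 and 19 largest clonotypes of TET 1 to 3 held 50% of the counts, while 396, 1099, 1427 and 1936 clonotypes were needed in CD8 1 to 4. Set against the size of the library, this was 15 of 102, 5 of 126 and 19 of 97 clonotypes in TET 1 to 3. In CD8 1 to 4 it was 396 of 2040, 1099 of 5316, 1427 of 6991 and 1936 of 8596. On this scale TET 3 was close to the CD8 libraries, and TET 1 and TET 2 were more concentrated. The 10 largest took 42.6%, 73.3% and 30.8% of the TET counts and 4.39%, 2.15%, 2.08% and 1.26% of the CD8 counts, a difference of 46.4 percentage points (exact p = 0.0286, adjusted 0.0429) and of 34.2 without TET 2. TET 2 was thus the most concentrated of the 7 libraries and CD8 4 the least.

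Clonotypes with a single count made up 10.8%, 29.4% and 20.6% of the TET clonotypes and 15.4%, 18.8%, 29.4% and 36.4% of the CD8 clonotypes. These ranges overlapped, and the difference of -4.77 percentage points did not pass the test (exact p = 0.514). It rested on single libraries, being -0.0332 points without TET 1, -9.32 without TET 2, -7.98 without CD8 1, -0.966 without CD8 4 and -0.966 with the 3 mice as pairs. The median count of a clonotype was 27.5, 11 and 20 in TET 1 to 3 and 6, 4, 3 and 2 in CD8 1 to 4, and the number of cells per library is not given in the labels. Fewer cells in the TET libraries and a narrower repertoire of those cells therefore cannot be told apart by the numbers of clonotypes. With the 3 mice as pairs, each TET library was below its own CD8 library in the number of clonotypes and the effective number (mean log2 differences -4.16 and -5.14 at equal depth), but a sign-flip test over 3 mice cannot go below an exact p of 0.25.

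**Figure D1:**
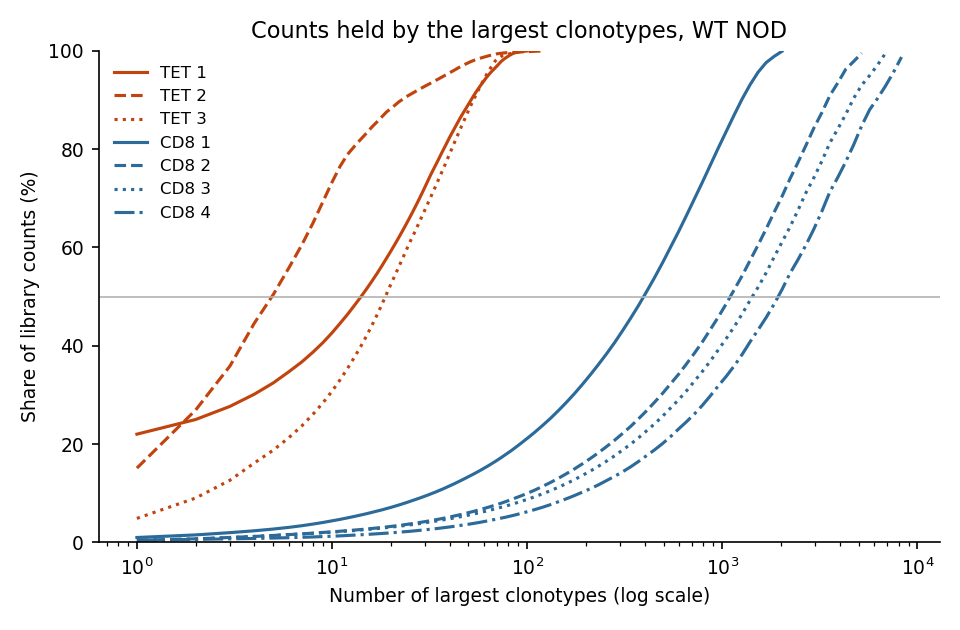
Cumulative share of library counts (%, y axis) held by a library's largest clonotypes, against their number (x axis, log scale), for the 3 TET and 4 CD8 libraries. The curves of the TET libraries cross the 50% line at 5 to 19 clonotypes and those of the CD8 libraries at 396 to 1936.

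V family use differed between the fractions mainly by more TRBV13 and fewer TRBV12 and TRBV16 clonotypes in TET. Each clonotype was counted once, so that a large clone weighs no more than a small one, and 15 of the 22 families found had enough clonotypes for edgeR's quasi-likelihood test. At an adjusted p under 0.05, 6 families (40.0% of those tested) differed, 1 higher in TET (6.67%) and 5 lower (33.3%). The shares of 9 families (60.0%) did not overlap between the 3 TET and the 4 CD8 libraries. With the mouse as a replicate block 3 families were called, all lower in TET (TRBV12, TRBV14 and TRBV16), without TET 2 it was 4, and without TET 3 it was 3. The balance of directions also moved with the method: DESeq2 called 3 families higher in TET (TRBV13, TRBV1 and TRBV20) and 2 lower (TRBV12 and TRBV16), and edgeR on counts in place of clonotypes called 0 higher and 7 lower (TRBV3, TRBV12, TRBV14, TRBV15, TRBV16, TRBV26 and TRBV30), of 17 tested.

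TRBV13, the family of NY8.3, made up 54.9%, 65.9% and 54.6% of the clonotypes of TET 1 to 3 (56, 83 and 53 clonotypes). In CD8 1 to 4 its share was 37.6%, 36.9%, 34.4% and 34.3%, and every TET library lay above every CD8 library. The log2 fold change was 0.72 (SE 0.11, edgeR adjusted p = 0.000718), or 1.65-fold, and 0.62 without TET 2 (adjusted p = 0.0102). With the mouse as a block it was 0.69 and no longer passed (edgeR adjusted p = 0.0823), although TET was above CD8 in all 3 mice. The difference in share was 22.7 percentage points (exact p = 0.0286, adjusted 0.0429), and it turned to -23.6 points when the comparison was limited to the 90 largest clonotypes of each library, which keeps most TET clonotypes and a small part of the CD8 ones. By counts TRBV13 took 81.6%, 98.3% and 70.2% of TET 1 to 3 and 54.0%, 53.8%, 47.6% and 47.0% of CD8 1 to 4, a difference of 32.8 points (exact p = 0.0286, adjusted 0.0429). The fit across families by counts did not call it (log2 fold change 0.72, edgeR adjusted p = 0.102).

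TRBV12 was not found among the 325 TET clonotypes, while CD8 1 to 4 held 132, 310, 459 and 554 clonotypes of it. Its share of the CD8 libraries was 6.33 ± 0.335% (SD, n = 4), and over the pooled clonotypes it was at least 6.87-fold lower in TET (floor of 3 clonotypes over the 3 libraries, edgeR adjusted p = 0.000718). TRBV12 was called in each of the 16 alternative fits that tested it. TRBV16 was nearly as rare, with 1, 2 and 0 clonotypes in TET 1 to 3 against 6.32% to 8.42% of the CD8 clonotypes. Its pooled share was 8.35-fold lower in TET (95% exact interval 2.85 to 40.5, counting error only; edgeR log2 fold change -3.05, SE 0.58, adjusted p = 0.0024), and it too was called in each of 16 alternatives. Without TET 2, which held 2 of its 3 TET clonotypes, the log2 fold change was -3.92 (edgeR adjusted p = 0.012).

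TRBV14 had 1, 3 and 0 TET clonotypes and took 4.56% to 5.69% of the CD8 libraries (log2 fold change -2.08, SE 0.55, edgeR adjusted p = 0.0164). Without TET 2, which held 3 of its 4 TET clonotypes, its log2 fold change was -3.37, and without TET 3 it was -1.57 and not called (edgeR adjusted p = 0.0544). TRBV15 had 2, 1 and 0 TET clonotypes against 3.15% to 3.89% of the CD8 libraries, a pooled share 3.77-fold lower (interval 1.29 to 18.3; edgeR log2 fold change -1.90, SE 0.61, adjusted p = 0.0375). TRBV17 had 2, 1 and 2 TET clonotypes against 3.63% to 4.51% (log2 fold change -1.35, SE 0.43, edgeR adjusted p = 0.0378). These last calls were the least stable, and without TET 1 the log2 fold change of TRBV15 was -2.94 (edgeR adjusted p = 0.03). The TRBV15 call was lost without TET 2, TET 3, CD8 1 or CD8 2 (edgeR adjusted p from 0.0535 to 0.202), and the TRBV17 call without any 1 TET library or CD8 1 (0.0560 to 0.267).

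Because shares sum to the whole, a higher TRBV13 share lowers all others, and the fit was repeated on the clonotypes of the other families alone. TRBV12 (edgeR adjusted p = 0.00244) and TRBV16 (log2 fold change -2.39, adjusted p = 0.0288) were then the 2 families called of 14 tested (14.3%). TRBV14 was no longer called there (log2 fold change -1.43, edgeR adjusted p = 0.147). TRBV1 had the largest positive value next to TRBV20 in that fit, with 1.35 (SE 0.42, edgeR adjusted p = 0.0533) against 1.57 (SE 0.67, adjusted p = 0.147), and neither passed. TRBV1 made up 37.0%, 23.3% and 13.6% of the TET clonotypes outside TRBV13 and 6.76% to 11.8% of the CD8 ones, so the groups did not overlap on this scale. Over all clonotypes TRBV1 took 16.7%, 7.94% and 6.19% of TET 1 to 3 and 4.22% to 7.45% of CD8 1 to 4 (log2 fold change 0.69, SE 0.42, edgeR adjusted p = 0.242), and DESeq2 called it (1.12, adjusted p = 0.00323). By counts its log2 fold change was -0.13, with shares of 9.80%, 0.333% and 5.84% in TET and 3.28% to 6.95% in CD8.

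The remaining tested families were not called. TRBV3 (log2 fold change -1.12, edgeR adjusted p = 0.115) had 1, 3 and 3 TET clonotypes, TRBV29 (-0.54, 0.242) had 5, 3 and 5, and TRBV20 (0.92, 0.261) had 6, 2 and 3. Each of these 3 can change with the setting: TRBV3 was called without CD8 2 (log2 fold change -1.22, edgeR adjusted p = 0.0351), TRBV20 in DESeq2, and TRBV29 turned to 0.12 on the clonotypes outside TRBV13. TRBV5 varied between the TET libraries, with 1, 5 and 11 clonotypes, or 0.980%, 3.97% and 11.3%, against 4.95% to 6.19% in CD8. TRBV19 took 2.94% to 7.22% of the TET and 5.20% to 6.28% of the CD8 clonotypes, and TRBV4 2.38% to 3.09% and 4.01% to 4.18%. TRBV31 took 1.03% to 2.94% and 1.25% to 1.84%, and TRBV2 0.794% to 3.09% and 1.03% to 1.53%. The 7 families too rare to test (TRBV8, TRBV10, TRBV21, TRBV23, TRBV24, TRBV26 and TRBV30) had 2 TET clonotypes in all, both TRBV26 in TET 2.

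**Figure D2:**
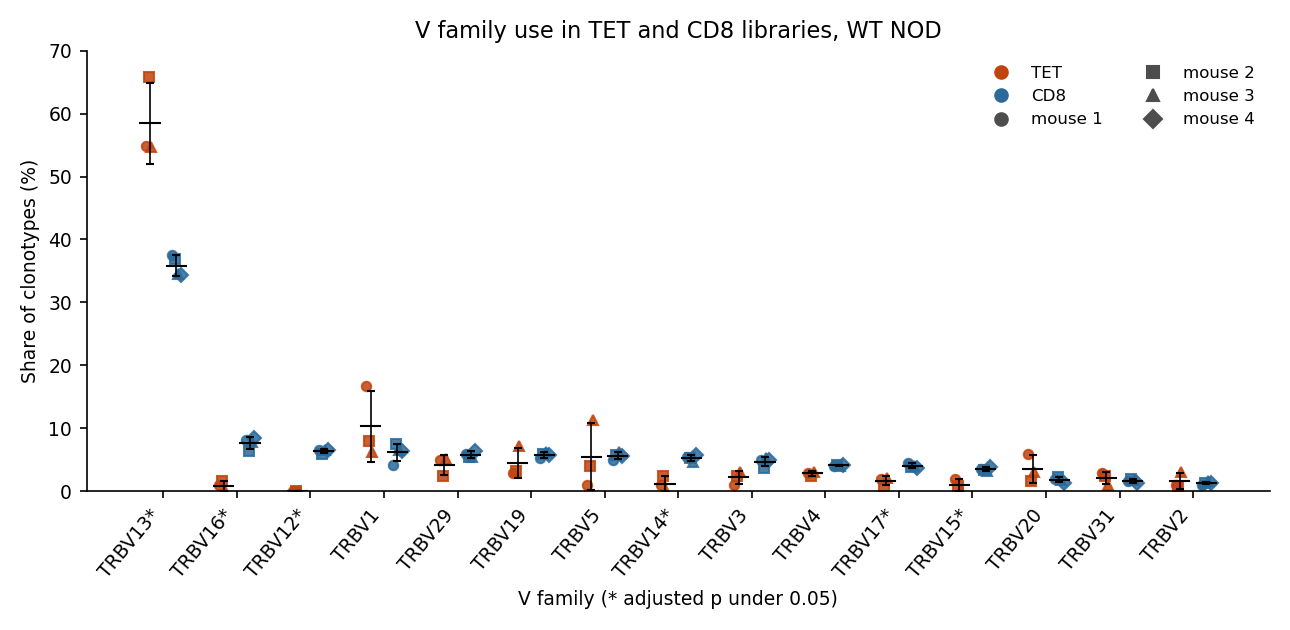
Share of clonotypes (%, y axis) of each tested V family (x axis) in the TET and CD8 libraries, 1 point per library, with the mean (long bar) and SD (error bar). An asterisk marks the 6 families with an edgeR adjusted p under 0.05. TRBV13 lies at 54.6% to 65.9% in TET and 34.3% to 37.6% in CD8, and TRBV12 at 0 in TET.

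TRBV13 clonotypes were also the larger ones, in both fractions. Their median count was 61.5, 35 and 33 in TET 1 to 3, against 15.5, 2 and 16 for the other families, and 10, 6, 4 and 3 in CD8 1 to 4, against 5, 3, 2 and 2. Since size and family went together, the libraries were compared at matched relative ranks. Among the largest 10% of a library's clonotypes TRBV13 took 90%, 100% and 100% in TET 1 to 3 and 84.8%, 79.1%, 72.0% and 72.4% in CD8 1 to 4. From there to the 50% mark it took 75.6%, 88% and 57.9% in TET and 38.8%, 43.8%, 40.4% and 34.0% in CD8. In the smallest 50% it took 31.4%, 41.3% and 42.9% in TET and 27.2%, 22.8%, 22.2% and 27.0% in CD8. In each size class every TET library was above every CD8 library, and in each library the share fell from the largest class to the smallest, as a description without a test. At equal absolute rank the order depended on the ranks taken. At ranks 1 to 10 TRBV13 took 90%, 100% and 100% in TET 1 to 3. In CD8 1 to 4 it took 80%, 90%, 50% and 80% there, so no TET library was below a CD8 library. At ranks 11 to 50 the fractions overlapped, with 77.5%, 95% and 55% TRBV13 in TET 1 to 3 and 87.5%, 87.5%, 77.5% and 80% in CD8 1 to 4. Among the 90 largest clonotypes, the first 10 included, it took 53.3%, 74.4% and 52.2% in TET and 77.8% to 90% in CD8 (log2 fold change -0.48, edgeR adjusted p = 0.0238, the 1 family that could be tested there).

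**Figure D3:**
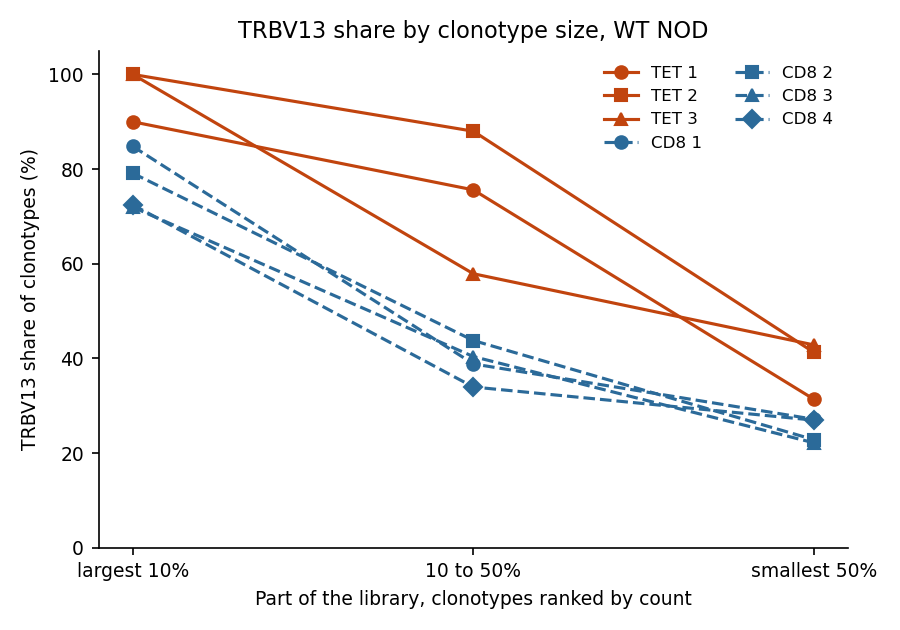
TRBV13 share of clonotypes (%, y axis) in the largest 10%, the next 40% and the smallest 50% of each library's clonotypes ranked by count (x axis), 1 line per library. The 3 TET lines lie above the 4 CD8 lines in each class, and all 7 fall from left to right.

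Members of the TRBV13 family differ at the fourth CDR3 residue: TRBV13-2 encodes glycine there, and TRBV13-1 and TRBV13-3, the latter used by NY8.3, encode serine. The tables name the family alone, so this residue, which the joining can also change, was counted. Glycine stood there in 19.6%, 25.3% and 18.9% of the TRBV13 clonotypes of TET 1 to 3 and in 37.5%, 35.5%, 38.3% and 37.9% of those of CD8 1 to 4. The difference of -16.0 percentage points passed the test (exact p = 0.0286, adjusted 0.0429), the groups did not overlap, and TET was below CD8 in all 3 mice. Without TET 2 it was -18.0 points. Serine stood there in 64.3%, 56.6% and 64.2% of the TRBV13 clonotypes of TET and 50.6% to 54.4% of those of CD8. Of the TRBV13 counts, clonotypes with glycine held 16.1%, 14.1% and 9.60% in TET and 32.8% to 39.3% in CD8. Among the 90 largest clonotypes the glycine share overlapped between the fractions, 8.51% to 25.4% in TET and 23.9% to 43.0% in CD8 (-12.2 points, exact p = 0.143). By relative rank it did not overlap in the largest 10% or from there to the 50% mark. In the smallest 50% it was 12.5%, 38.5% and 28.6% in TET 1 to 3 and 33.6% to 40.8% in CD8, so TET 2 lay within the CD8 range. The fifth residue, aspartate in the germline of these members before trimming, was aspartate in 42.2% to 56.6% of the TET and 42.9% to 48.8% of the CD8 TRBV13 clonotypes.

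J segments, which encode the end of the CDR3, were compared in the same way. Of 12 tested, 1 was called (8.33%), TRBJ1-5, higher in TET, and the shares of 4 (33.3%) did not overlap between the fractions. TRBJ1-5 made up 3.92%, 5.56% and 7.22% of the clonotypes of TET 1 to 3 (4, 7 and 7 clonotypes) and 2.89%, 2.20%, 2.40% and 1.93% of those of CD8 1 to 4. Its log2 fold change was 1.31 (SE 0.39, edgeR adjusted p = 0.0168), and it was no longer called after blocking on the mouse (1.17, adjusted p = 0.0813), without TET 2 (1.30, adjusted p = 0.396) and without TET 3 (1.11, adjusted p = 0.255). The call was also lost without single-count clonotypes (1.12, edgeR adjusted p = 0.137) and by counts (1.84, edgeR adjusted p = 0.117). Of the 18 TET clonotypes with TRBJ1-5, 1, 7 and 3 were TRBV13 in TET 1 to 3. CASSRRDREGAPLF, shown above, is one of them and held most of the 15.3% of TET 2 counts that used TRBJ1-5, against 4.73% in TET 1 and 4.10% in TET 3.

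TRBJ2-4, the J segment of NY8.3, took 28.2%, 24.9% and 14.1% of the counts of TET 1 to 3 and 9.64%, 9.54%, 9.48% and 9.64% of those of CD8 1 to 4, a difference of 12.8 percentage points (exact p = 0.0286, adjusted 0.0429). The receptor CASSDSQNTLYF alone accounted for 22.7% of the counts of TET 1 and 15.3% of those of TET 2, and was not found in TET 3. In TET 1 and TET 2 it thus held most of the TRBJ2-4 counts. By clonotypes TRBJ2-4 took 9.80%, 15.1% and 13.4% in TET and 8.78%, 8.86%, 8.87% and 9.39% in CD8, 3.79 points more in TET (exact p = 0.0286, adjusted 0.0429), and the fit across segments did not call it (log2 fold change 0.52, SE 0.24, edgeR adjusted p = 0.199). The exact test was no longer passed when receptors were counted in place of nucleotide clonotypes (3.04 points, exact p = 0.0857) or without the clonotypes held at 10 times the count elsewhere (1.90 points, exact p = 0.171). Among TRBV13 clonotypes TRBJ2-4 was used by 14.3%, 19.3% and 15.1% in TET and 8.76% to 9.86% in CD8, without overlap. Among the other families it was used by 4.35%, 6.98% and 11.4% in TET and 8.56% to 9.14% in CD8.

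Of the remaining segments, TRBJ1-2 was used by 6.86%, 7.14% and 4.12% of the TET and 3.73% to 3.91% of the CD8 clonotypes (log2 fold change 0.68, edgeR adjusted p = 0.222), and TRBJ1-6 by 2.94%, 0.794% and 2.06% against 3.19% to 3.38% (-0.82, 0.302). These did not overlap and did not pass. TRBJ2-1 (-0.40, edgeR adjusted p = 0.299) and TRBJ2-5 (-0.34, 0.382) did not pass either. TRBJ2-7, the segment with the most clonotypes in both fractions, took 17.6% to 23.0% in TET and 20.1% to 23.8% in CD8. TRBJ1-1 took 6.19% to 13.7% and 7.80% to 9.44%, TRBJ1-3 2.06% to 4.90% and 4.07% to 5.25%, and TRBJ1-4 3.09% to 7.84% and 5.35% to 6.70%. TRBJ2-2 took 5.88% to 7.94% and 5.79% to 6.74%, and TRBJ2-3 5.88% to 9.28% and 7.64% to 8.98%. The TRBJ1 cluster as a whole made up 40.2%, 32.5% and 24.7% of the TET and 27.2% to 30.7% of the CD8 clonotypes, 3.33 points more in TET, which failed the test (exact p = 0.543) and became -0.526 without TET 1.

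CDR3 regions of 12 amino acids were more frequent in TET, the 1 length called of 8 tested (12.5%), and the shares of 3 lengths (37.5%) did not overlap. They made up 15.7%, 24.6% and 14.4% of the clonotypes of TET 1 to 3 (16, 31 and 14 clonotypes) and 12.3%, 11.2%, 10.8% and 10.3% of those of CD8 1 to 4. The log2 fold change was 0.79 (SE 0.19, edgeR adjusted p = 0.00171). TET 2 held the highest share: without it the log2 fold change was 0.47 (edgeR adjusted p = 0.699), and without CD8 4 it was 0.75 (adjusted p = 0.137). With the mouse as a block it was 0.72 (edgeR adjusted p = 0.372). Among TRBV13 clonotypes 25%, 32.5% and 17.0% had this length in TET and 12.5% to 15.3% in CD8, and among other families 4.35%, 9.30% and 11.4% in TET and 9.21% to 10.4% in CD8. By counts the share was 36.5%, 67.0% and 16.1% in TET and 10.6% to 13.9% in CD8, and the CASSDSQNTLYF, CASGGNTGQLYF, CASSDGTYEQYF and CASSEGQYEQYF sequences shown above are of this length.

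The mean CDR3 length of the clonotypes was 13.5, 13.5 and 13.8 residues in TET 1 to 3 and 13.9 in each CD8 library. The difference of a TET library from its own CD8 library was -0.327, -0.390 and -0.0486 residues in mice 1 to 3, so TET 3 was close to CD8. The mean difference of -0.259 residues passed the exact test (p = 0.0286, adjusted 0.0429) and did not without single-count clonotypes (-0.285, exact p = 0.143). By counts the mean was 13.1, 12.6 and 14.0 in TET and 13.7 to 13.8 in CD8, and TET 3 was above CD8 (exact p = 0.229). The net charge of the CDR3, counting lysine and arginine as 1 and aspartate and glutamate as -1, averaged -0.706, -0.968 and -0.938 over the TET clonotypes and -0.787 to -0.748 over the CD8 clonotypes (exact p = 0.286). By counts the difference was -0.0699 (exact p = 0.114). Lengths of 13 and 14 residues took 21.6% to 22.5% and 23.0% to 29.4% of the TET clonotypes, against 19.0% to 20.2% and 29.7% to 30.4% in CD8. Neither passed, nor did lengths of 10, 11, 15, 16 and 17 residues.

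**Figure D4:**
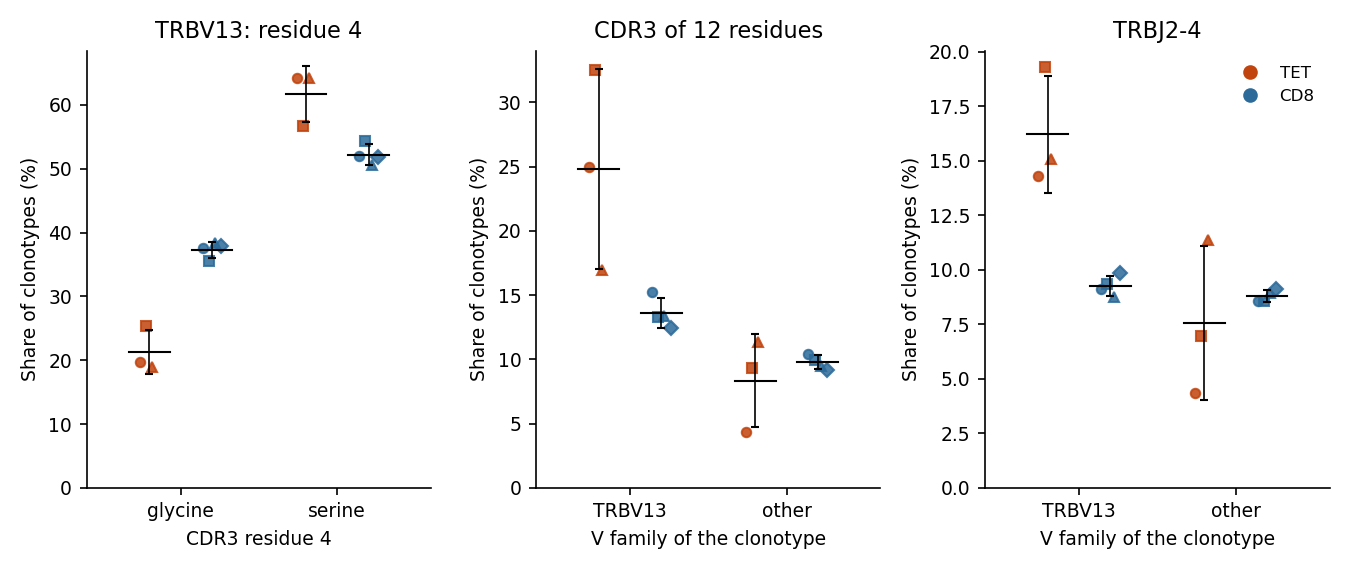
Shares of clonotypes (%, y axes) per library, with mean and SD: glycine or serine as the fourth residue of TRBV13 clonotypes, CDR3 of 12 residues in TRBV13 and other clonotypes, and use of TRBJ2-4 in TRBV13 and other clonotypes. Glycine lies at 18.9% to 25.3% in TET and 35.5% to 38.3% in CD8, and for length and TRBJ2-4 the fractions are apart among TRBV13 clonotypes and overlap among the others.

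Few receptors were common to the TET libraries, and these carried a large part of the counts of TET 1 and TET 2. Of 301 TET receptors, 12 (3.99%) were in at least 2 of the 3 libraries and 2 in all 3, and of 21503 CD8 receptors 628 (2.92%) were in at least 2 of 4 libraries and 6 in all 4. These percentages are not on a like basis, because the fractions differ in the number and size of their libraries. The 12 receptors held 34.5%, 46.1% and 14.0% of the counts of TET 1 to 3. In CD8 1 to 4 the same receptors held 1.26%, 0%, 0% and 0.0495% of the counts, and 8 of the 12 had no count in any CD8 library. They were chosen by their presence in TET, so this is a description. Chosen by presence in CD8 instead, the 628 receptors held 11.4%, 8.58%, 7.87% and 6.25% of the counts of CD8 1 to 4 and 2.29%, 8.67% and 6.86% of those of TET 1 to 3. The sharing in TET rested mostly on TET 1 and TET 2. Without TET 2, 3 of 193 TET receptors (1.55%) were in both remaining libraries, with 2.60% of the counts of TET 1 and 5.68% of TET 3, and without TET 1 it was 5 of 209 (2.39%), with 6.003% of TET 2 and 9.86% of TET 3. Of the 12, TRBV13 was the family of 10, with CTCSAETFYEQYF (TRBV1) and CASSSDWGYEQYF (TRBV3) as the others.

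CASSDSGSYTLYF (TRBV13, TRBJ2-4) was in all 3 TET libraries, with 0.141%, 3.24% and 1.38% of the counts of TET 1 to 3, and so was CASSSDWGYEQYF (TRBV3, TRBJ2-7), with 0.201%, 0.0869% and 0.158%. Neither was found in a CD8 library. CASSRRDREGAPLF and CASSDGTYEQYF were shared by TET 1 (2.98% and 0.986%) and TET 2 (15.1% and 8.72%). The receptor of the largest TET 3 clonotype was shared by TET 2 (1.54%) and TET 3 (4.89%), and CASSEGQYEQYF by TET 1 (2.25%) and TET 3 (4.14%). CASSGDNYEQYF had 1.04% of TET 2 and 2.33% of TET 3, and under another nucleotide sequence it is the largest clonotype of CD8 1, given above. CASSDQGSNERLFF (TRBJ1-4) had 2.68% of TET 1 and 0.221% of TET 2, and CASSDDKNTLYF (TRBJ2-4) 0.0604% and 0.682%. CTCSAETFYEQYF had 2.48% of TET 1 and 0.0134% of TET 2. The last, a TRBV13 and TRBJ2-1 receptor, had 15 counts in TET 2 and 28 in TET 3. By nucleotide clonotype TET 1 and TET 2 shared 8, holding 31.5% of the counts of TET 1 and 33.5% of TET 2. TET 2 and TET 3 shared 5 (5.73% and 9.82%), and TET 1 and TET 3 shared 3 (2.60% and 5.68%). Some of these clonotypes were held at 10 times the count or more by another TET library. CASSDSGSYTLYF had 7 counts in TET 1 and 35 in TET 3, against 484 in TET 2. In TET 1, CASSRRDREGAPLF had 148 and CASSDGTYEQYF 49, against 2261 and 1305 in TET 2, and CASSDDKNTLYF 3 against 102. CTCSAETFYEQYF had 2 counts in TET 2 against 123 in TET 1. Sharing without such clonotypes was not counted.

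A mouse's TET clonotypes were found to a small and varying degree in its own CD8 library. TET 1 shared 3 of its 102 clonotypes with CD8 1, holding 24.5% of the TET counts. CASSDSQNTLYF accounted for nearly all of this, with 1094 counts in TET 1 and 23 in CD8 1, followed by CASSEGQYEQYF (112 and 8) and a TRBV1 and TRBJ2-3 clonotype (13 and 4). TET 2 shared 6 of 126 with CD8 2, holding 6.13% of the counts, of which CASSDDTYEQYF had 653 counts in TET 2 and 3 in CD8 2. The next were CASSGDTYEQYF (154 and 4), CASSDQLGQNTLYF (56 and 2), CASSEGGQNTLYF (51 and 6) and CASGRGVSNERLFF (2 and 13). TET 3 shared 2 of 97 with CD8 3, holding 1.77% of the counts, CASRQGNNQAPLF (35 and 8) and a TRBV1 and TRBJ1-3 clonotype (10 and 13). In each of these but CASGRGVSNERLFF the share of counts was higher in TET than in the own CD8 library, and up to 5 per mouse were taken by their TET count. A TET library divides its counts among far fewer clonotypes, so most clonotypes hold a larger share there. The comparison is therefore a description, and enrichment of these clonotypes was not tested.

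The mean share of TET counts in clonotypes of the own CD8 library was 10.8 ± 12.1% (SD, n = 3), 3.95% without mouse 1 and 15.3% without mouse 3. The average over the 3 CD8 libraries of the other WT mice was 0.832%, 6.33% and 4.43% for TET 1 to 3, and over the 4 CD8 libraries of the mutant mice 19.0%, 9.83% and 5.69%. The own library was thus above the average of the other WT libraries for TET 1 and below it for TET 2 and TET 3. For TET 2 that average was set by CD8 1 (16.1%). The own library of TET 2 (6.13%) was above CD8 3 (1.74%) and CD8 4 (1.18%), while that of TET 3 was below each of the others. Of the 301 TET receptors, 38 (12.6%) were found in any of the 4 WT CD8 libraries.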

How the data were processed

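TCRβ RNA of the WT TET (n = 3) and CD8 (n = 4) fractions was amplified by 5′RACE with 9-nt molecular identifiers and sequenced as 300-bp paired reads, per the labels' protocols. Each library's table, as the authors deposited it, lists CDR3 sequences with a count, its fraction of a library total, the CDR3 length in amino acids and the positions of the V and J alignments (other measures in the deposited tables). Whether counts are reads or molecules is open, and the sources used here name no aligner, caller or build. The tables held 94.2% to 96.9% of the deposited total in these libraries, and shares were recomputed from the counts. Of the rows, 1 each in CD8 2, 3 and 4 was not TRBV and was left out. J segments were assigned from the J cluster, the J length and the last residues of the CDR3, then from the last 9 nucleotides (at most 2 mismatches), and 5 WT clonotypes stayed unassigned. The J length was 19 nt above the RefSeq length of the segment assigned in nearly all, but had been used in the assignment.

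Clonotypes per V family, J segment and CDR3 length were tested with edgeR 4.0.16 (quasi-likelihood, common dispersion, library size the number of clonotypes, no further normalization, filterByExpr minimum count 10, Benjamini-Hochberg adjusted p under 0.05), and with DESeq2 1.42.0 as an alternative. The scripts were tested on simulated data. The 15 single values were compared by two-sided exact permutation over 35 splits (smallest p 0.0286). Equal depth is the mean of 200 subsamples. Intervals are 95% exact Clopper-Pearson and, like the floor of 3 counts, cover counting error only. Same-numbered libraries were taken as 1 mouse, because the series' design text speaks of 4 WT mice and 2 fractions. As a check, deviations of V family use (15 families) gave r of -0.540, 0.148 and 0.572 for mice 1 to 3, so the pairing rests on the design text.

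All tested features are named, with fold changes where the unadjusted edgeR p was under 0.2 and shares otherwise. Named clonotypes are the 5 largest of each TET library and the largest of each CD8 library (some by sequence, the others by count), receptors in at least 2 TET libraries, and up to 5 per mouse shared with the own CD8 library. The members and lists were chosen with earlier results of these data known, and a limit of the fold changes printed, the clonotypes held at 10 times the count elsewhere the fit without TRBV13 and the shared receptors without each TET library were added after seeing the data. Python 3.11.15, pandas 2.3.3 and scipy 1.17.1 were used.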

Additional observations from a re-analysis of the deposited data

Results flagged for a closer look

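In 48 groups of 4 CD8 libraries, 1 for each value or share, 4 had a library far from the other 3 by Dixon's test at the 95% level, and chance flags about 1 group in 20. CD8 4 had a TRBJ2-4 share of clonotypes of 9.39%, above 8.78% to 8.87% in the others, which leaves it below the 9.80% of the lowest TET library. CD8 4 also had 20.2% of its clonotypes at a CDR3 length of 13 residues, against 19.0% to 19.1%. CD8 1 had a mean CDR3 length by counts of 13.7 residues, against 13.8 in the others. CD8 2 had a TRBV12 share of clonotypes of 5.83%, against 6.44% to 6.57%. Groups of 3 TET libraries were too small for this test.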

How the results depend on the processing

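TRBV12 and TRBV16 kept their call in all 16 alternatives that tested them, TRBV13 in 13, TRBV14 in 11, TRBV15 in 6, TRBV17 in 4, a CDR3 length of 12 in 9 of 16 and TRBJ1-5 in 10 of 15. Of the 27 other features, 17 changed sign in some setting.

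V families called numbered 7 by counts (0 higher in TET, 7 lower, of 17 tested), 3 with TMM factors, 3 without single-count clonotypes, 3 with the replicate block, 2 (of 14 tested) without TRBV13 clonotypes and 1 (of 1 tested) among the 90 largest clonotypes. J segments called numbered 0 by counts (2 with unadjusted p under 0.05), 0 without single counts (3), 0 with the block (2) and 0 among the 90 largest (1). CDR3 lengths called numbered 0 with TMM factors, by counts, with the block, among the 90 largest and without clonotypes held at 10 times the count elsewhere, each with 1 at an unadjusted p under 0.05. All these counts are of edgeR, and DESeq2 called 5 families (3 higher, 2 lower), 1 segment and 1 length.

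Among the 90 largest clonotypes the TRBV13 difference turned to -23.6 points (log2 fold change -0.48), the mean length difference to 0.00185 residues, the net charge difference to 0.134 and CDR3 length 15 to 0.052 (log2), and the glycine difference (-12.2 points) and TRBJ2-4 (3.52 points) did not pass. This alternative has fewer features to test. By counts TRBV1 turned to -0.13 and TRBJ1-2 to -0.0098, and TRBV29 turned to 0.12 without TRBV13 clonotypes. TRBJ2-4 by clonotypes did not pass with amino acid CDR3s (3.04 points) or without clonotypes held at 10 times the count elsewhere (1.90), nor did mean length there (-0.190) or without single counts (-0.285). The cause was not tested in these cases.

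With the mice as a replicate block, an exact sign-flip over 3 mice cannot go below p = 0.25. The differences were -5.30, -4.16 and -5.14 on the log2 scale for clonotypes at full depth, at equal depth and effective number, and 46.0 points for the 10 largest. They were 22.2 and 31.6 points for TRBV13 by clonotypes and counts, -15.8 for glycine, 3.93 and 12.9 for TRBJ2-4 by clonotypes and counts, and -0.256 residues for length. The block kept the calls of TRBV12, TRBV14 and TRBV16.

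Leaving out 1 library at a time, no exact test could reach 0.05 (smallest p 0.0667 or 0.1). The ranges were -5.99 to -5.30, -4.43 to -4.16 and -5.58 to -4.87 for the 3 log2 differences above, 34.2 to 55.5 points for the 10 largest, -9.32 to -0.0332 for single-count clonotypes, 19.0 to 24.6 and 25.3 to 39.4 for TRBV13 by clonotypes and counts, -18.0 to -14.8 for glycine, 2.63 to 5.27 and 9.94 to 17.0 for TRBJ2-4, -0.526 to 7.20 for the TRBJ1 cluster and -0.372 to -0.191 for mean length. Calls ranged from 3 to 6 families, 0 to 1 segments and 0 to 1 lengths. TET libraries with 97 to 126 clonotypes limit what can be called, and a family at 1% of clonotypes is 1 clonotype there.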
